A study of Mus musculus with 125 samples.

Results

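Interferon-stimulated genes with antiviral products that lie dispersed over the genome were followed here at the level of promoter accessibility. The list holds 36 genes and was chosen with earlier results of these data known. A larger share of calls in it than among all peaks is therefore no independent support. A consensus ATAC-seq peak was assigned to a gene when its centre lay within 3 kb of the start of any of its annotated transcripts (GRCm38). All 36 genes had at least 1 such peak, and together they had 92 of the 256400 consensus peaks. Of the 92 peaks, 46 passed the filters in lines A and B, where 20221 promoter peaks were tested, and 47 in lines C and D, where 22064 were. To be tested, a peak had to be found as a broad peak in all replicates of some group of the pair and to pass a filter on low counts. The tested peaks covered 35 genes, and Ifi44 had none.

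ATAC-seq measures how often the transposase Tn5 cuts a stretch of DNA, so a higher count marks chromatin that is more open. The libraries came from mouse B-ALL cells, a leukaemia of B cell precursors, driven by BCR/ABLp185 and made from bone marrow of wild-type C57BL/6 mice. Lines A and B are DNA-barcoded derivatives of 1 parental line, and C and D of another, so each pair stands for 1 parental line and the pairs were analysed apart. Tumour cells were kept alone or together with IL-2-activated primary mouse NK cells from spleen, IL-2 being present in every culture, and were sorted as GFP+ cells. Libraries with NK cells were taken at time point 1 (TP1, day 4) and time point 2 (TP2, day 10), or on days 6 and 16 in experiment 9.7. These are the days in the labels, and the study's text names a later day for TP2. Cells alone were sampled at TP1, so at TP2 the length of culture and the exposure to NK cells cannot be told apart. There were 125 libraries in 42 groups, from 14 combinations of cell line and experiment, with 3083547 to 13580746 counts in peaks each. In 2 groups a pair of libraries differed by less than sampling noise and was counted as 1 sample, which left 123 samples. The study's methods describe biological replicates of each condition within an experiment. In the fits with NK cells, each pair has 1 common NK effect per time point, and p-values measure the spread of samples around it. That spread mixes differences between parallel cultures with differences of the NK effect between experiments and sister lines. Samples were counted there, not the 14 combinations. In the fit without NK cells p-values measure the spread between parallel cultures of the same lines.

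Interferons bind receptors on the cell surface and signal through JAK kinases and STAT factors. Type I interferon acts mainly through the interferon-stimulated response element (ISRE), and interferon-gamma, which NK cells secrete, mainly through gamma-activated sites (GAS). The induced genes encode sensors of foreign nucleic acids, the ubiquitin-like modifier ISG15 with its conjugation enzymes, enzymes that act on viral RNA or on nucleotide pools, membrane restriction factors, TRIM ubiquitin ligases, ADP-ribosyltransferases and nuclear body proteins. Many of their promoters are already open in unstimulated cells.

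The sequences shown are 150 bases upstream of the RefSeq start (GRCm38.p6), written 5′ to 3′ on the strand of the gene. RefSeq promoter windows of 300 bases, from 250 before to 50 after the start, matched 30 of the 36 genes. They were searched on both strands for an ISRE-like motif, GAAANNGAAA, and for the GAS motif, TTCNNNGAA, which reads the same on both strands. The first motif was in 3.44% of the 32851 promoters of the mouse table and in 10 of the 30 member promoters. The GAS motif was in 8.3% of all promoters and in 6 of the 30. Overlapping matches were counted, and a match is a description of the letters in the window, not a measured binding site. Rsad2, Herc6 and Phf11d are shown because their peaks were called, Trim30a because its upstream region holds a match, and Isg15 and Bst2 because they hold several matches one after another. The stretch of Lgals3bp lies mostly in an annotated UTR and is not shown. Capitals mark the ISRE-like matches.
Rsad2, chr12:26456453-26456602, reverse strand: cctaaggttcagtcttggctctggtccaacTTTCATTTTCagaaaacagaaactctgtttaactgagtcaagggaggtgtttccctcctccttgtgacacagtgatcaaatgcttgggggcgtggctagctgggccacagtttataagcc
Herc6, chr6:57580842-57580991, forward strand: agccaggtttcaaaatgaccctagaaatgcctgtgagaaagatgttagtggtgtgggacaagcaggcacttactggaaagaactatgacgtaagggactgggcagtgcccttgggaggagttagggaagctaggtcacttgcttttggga
Phf11d, chr14:59365491-59365640, reverse strand: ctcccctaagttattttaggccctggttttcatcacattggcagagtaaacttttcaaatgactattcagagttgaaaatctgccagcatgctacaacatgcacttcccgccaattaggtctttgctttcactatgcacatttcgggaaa
Trim30a, chr7:104465194-104465343, reverse strand: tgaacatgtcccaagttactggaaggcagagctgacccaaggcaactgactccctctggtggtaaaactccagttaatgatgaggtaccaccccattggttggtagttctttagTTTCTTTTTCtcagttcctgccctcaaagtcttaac
Isg15, chr4:156200819-156200968, reverse strand: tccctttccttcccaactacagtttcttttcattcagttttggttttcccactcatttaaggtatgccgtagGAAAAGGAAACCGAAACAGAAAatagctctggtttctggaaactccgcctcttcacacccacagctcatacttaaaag
Bst2, chr8:71537473-71537622, reverse strand: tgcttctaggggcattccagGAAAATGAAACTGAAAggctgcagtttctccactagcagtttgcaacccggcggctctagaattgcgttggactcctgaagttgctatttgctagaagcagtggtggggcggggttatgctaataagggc

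Isg15 had 3 overlapping ISRE-like matches and Bst2 had 2, while the windows of Herc6, Phf11d and Lgals3bp had none. Dhx58, Parp14, Parp9, Rtp4, Usp18 and Zbp1 were not matched. The stretch shown for Isg15 lies outside the peak tested for that gene, and the other stretches shown lie inside the tested peaks of their genes.

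Most of the tested promoter peaks were also open in the cultures without NK cells, though a broad peak in some group was required for testing. Of the 48 peaks tested in either pair, 35 overlapped a broad peak in all 41 libraries of cells alone and 33 in all 125 libraries, and 37 had their centre within 1 kb of a transcript start. A broad peak in every library of the pair was found at 35 of 46 member peaks in A/B and 33 of 47 in C/D. Of all tested promoter peaks it was found at 11660 of 20221 in A/B and 11770 of 22064 in C/D. Per kilobase of peak, the 48 peaks had a median level of 9.03 CPM, that is counts scaled to library size, for A/B alone and 9.18 for C/D alone, beside 9.35 and 8.38 for all promoter peaks tested in each pair. The promoter peak of Daxx, a histone chaperone gene, had the highest level per kilobase in both pairs, at 35.6 and 29.8 CPM per kb. The lowest level in A/B was that of Phf11d at 0.808 CPM per kb, and the lowest in C/D was that of an intronic Sp140 peak at 1.64. The 44 peaks that were not tested had a median width of 417 bp and were found in a median of 1 library. They included the peak nearest to the Isg15 start, 231 bp upstream, which was found in 3 libraries, and the 3 peaks of Ifi44, each found in 1 to 3 libraries. Replicate 2 of line D with NK cells at TP2 in experiment 9.6 had 101211 broad peaks. Every other library had 26047 to 62541. The part of that library in the 44 peaks was not tested. The Isg15 peak that was tested is centred 2828 bp upstream, in an exon of AW011738, so the values given for Isg15 describe that region.

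With NK cells, the promoters of Lgals3bp and Rtp4 became more accessible in both pairs of lines and at both time points. Rsad2 rose in A/B at TP1 and in C/D at both time points, Phf11d rose in A/B at both time points, and Herc6 rose in A/B at TP1. A peak was called when its Benjamini-Hochberg adjusted p over all tested promoter peaks was at most 0.05 and its absolute log2 fold change at least 0.58, from the quasi-likelihood test of edgeR. By this rule 5 of 46 peaks were called higher in A/B at TP1, against 3.4% of all tested peaks. At TP2 in A/B 3 of 46 were called higher (2.82% of all). In C/D 4 of 47 were called higher at TP1 (0.947% of all) and 4 of 47 at TP2 (1.22% of all). These 4 were 3 genes, since Lgals3bp has 2 peaks. Fitted within experiments 9.5, 9.6 and 9.7 one at a time, the counts called higher were 5, 5 and 6 in A/B at TP1, 6, 3 and 3 in A/B at TP2, 4, 3 and 6 in C/D at TP1, and 6, 6 and 7 in C/D at TP2. The shares of all peaks called higher in those fits were, in the same order, 4.65%, 3.3% and 4.22%, then 4.35%, 3.77% and 2.27%, then 0.888%, 0.92% and 2.17%, and 7.7%, 2.05% and 9.26%. In C/D at TP2 the 6 and 7 member peaks in 9.5 and 9.7 thus stood beside 7.7% and 9.26% of all peaks. The 6 in 9.6 stood beside 2.05%.

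No member peak was called lower in any of these comparisons, where 0.46%, 0.791%, 0.0589% and 0.553% of all tested peaks were. DESeq2 also called 0 lower in each, and at an unadjusted p under 0.05 edgeR had 3, 2, 1 and 2 member peaks lower. Here and below, no share of all peaks was taken at an unadjusted p, so such counts cannot be set against other peaks. The called peaks of Phf11d and Rtp4 entered the A/B fit only through groups with NK cells, because no A/B group alone had a broad peak there in every replicate. So did 3 uncalled peaks in A/B, of Usp18, Ifi35 and Sp140, the last of them also for C/D. Such peaks are favoured to differ, and those of Phf11d and Rtp4 are among the A/B calls at both time points. Without the requirement that any group show a broad peak the A/B counts were 6 at TP1 and 4 at TP2, of 58 peaks. Of all peaks 3.23% and 2.33% were called higher there.

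**Figure D1:**
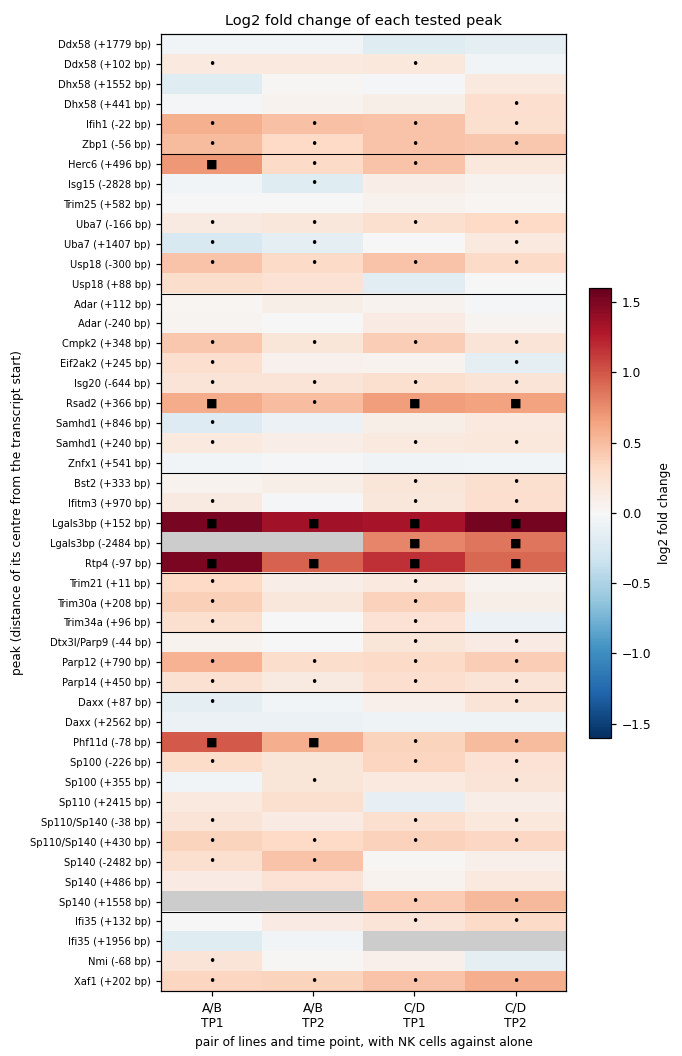
Log2 fold change (colour) of each tested peak of the list, with NK cells against alone, in 4 comparisons; rows are peaks named by gene and distance of the centre from the nearest start, horizontal lines part the functional groups, squares mark calls, dots mark an adjusted p of at most 0.05 below the fold threshold, and grey was not tested. The Lgals3bp promoter and Rtp4 are marked with a square in all 4 columns, and the other fold changes range from -0.25 to 0.98.

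Lgals3bp encodes a secreted glycoprotein that binds galectins. Its promoter peak (chromosome 11, 118400886 to 118402515, centred 152 bp inside the gene in a UTR exon) had 5.18 to 14.2 CPM in A/B alone, with a median of 8.5 over 18 samples. With NK cells the range was 13.3 to 34.7 at TP1 (median 23.1) and 13 to 36.8 at TP2 (median 20.7). The highest samples alone thus overlapped the lowest samples with NK cells. The log2 fold change was 1.52 ± 0.09 (SE, edgeR adjusted p = 1.96e-20) at TP1 and 1.34 ± 0.10 at TP2 (adjusted p = 1.27e-17), and both were higher in 6 of 6 combinations. In C/D the peak had 5.82 to 16.0 CPM alone (median 9.11), 16.4 to 33.8 at TP1 (median 22.8) and 17.8 to 41.2 at TP2 (median 25.3). No C/D sample with NK cells was as low as any C/D sample alone. The log2 fold change in C/D was 1.32 ± 0.07 at TP1 (adjusted p = 1.82e-25) and 1.53 ± 0.07 at TP2 (adjusted p = 7.05e-29), higher in 8 of 8 combinations. These are the largest log2 fold changes of the list in each of the 4 comparisons.

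A second Lgals3bp peak lies in intergenic sequence 2484 bp upstream of the start (118404080 to 118405072) and was tested in C/D alone. It had 3.23 to 7.55 CPM in C/D alone (median 4.45), 5.1 to 15 at TP1 (median 7.43) and 4.35 to 13.1 at TP2 (median 9.16), so the arms overlapped. Its log2 fold change was 0.78 ± 0.09 at TP1 (adjusted p = 8.47e-10) and 0.85 ± 0.09 at TP2 (adjusted p = 5.52e-11), higher in 8 of 8 combinations. In A/B, where a broad peak was too rare for a test, its medians were 2.95 CPM alone, 3.93 at TP1 and 4.5 at TP2.

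Rtp4 encodes a receptor transporter protein, an interferon-induced membrane-associated protein. Its peak (chromosome 16, 23608173 to 23611471, centred 97 bp upstream of an annotated transcript start) was weak in A/B alone, at 2.4 to 5.07 CPM with a median of 3.39. It had 6.49 to 15.5 CPM at TP1 (median 10.5) and 3.27 to 14.7 at TP2 (median 6.45). It lies in an intron of a longer annotated Rtp4 transcript, and the peak at the start of that one was found in 2 libraries and not tested, so with gene starts alone Rtp4 has no tested peak. The TP1 samples did not overlap the samples alone, whereas the TP2 samples did. The log2 fold change was 1.51 ± 0.12 at TP1 (adjusted p = 3.3e-16) and 0.95 ± 0.12 at TP2 (adjusted p = 1.08e-08). In C/D it had 3.32 to 9.55 CPM alone (median 5.29), 6.33 to 18.6 at TP1 (median 12.6) and 5.79 to 17.2 at TP2 (median 11). Its log2 fold change in C/D was 1.17 ± 0.10 at TP1 (adjusted p = 8.75e-15) and 0.92 ± 0.11 at TP2 (adjusted p = 3.22e-10). All 14 combinations were higher than alone at both time points.

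The change of Rtp4 from TP1 to TP2 differed between experiments 9.5 and 9.7 in lines A, C and D but not in B. The ratios of the other experiments are not given here. In experiment 9.7, sampled on days 6 and 16, the log2 ratio of TP2 to TP1 was -1.01 in line A, -0.85 in B, -0.86 in C and -0.95 in D. In experiment 9.5 the same ratios were -0.18 in A, -0.85 in B, 0.21 in C and 0.79 in D. Fitted in experiment 9.7 alone, Rtp4 at TP2 was no longer called, with log2 fold changes of 0.55 in A/B (adjusted p = 0.0993) and 0.36 in C/D (adjusted p = 0.0441).

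**Figure D2:**
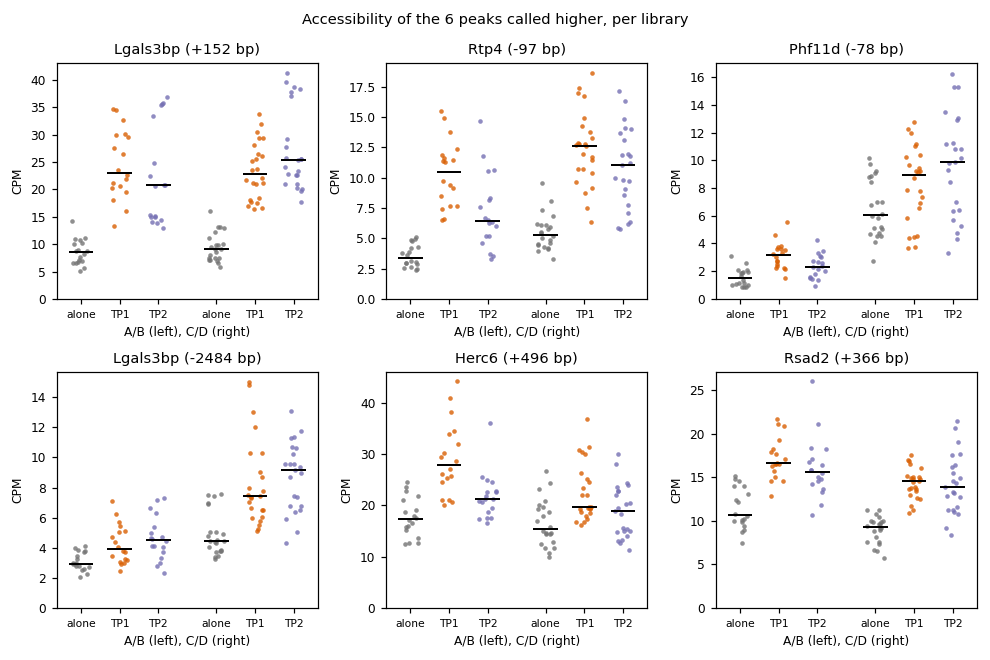
Normalised CPM of the 6 peaks called in at least 1 comparison; each point is a sample, black bars are medians, and A/B and C/D are shown left and right for cells alone and with NK cells at TP1 and TP2. In C/D every sample with NK cells exceeds every sample alone for the Lgals3bp promoter (at least 16.4 against at most 16.0), whereas for Herc6 the arms overlap in both pairs.

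Rsad2 encodes viperin, an enzyme that makes an antiviral nucleotide analogue. Its peak (chromosome 12, 26455336 to 26456794, centred 366 bp inside the gene in an intron) had 7.45 to 15.1 CPM in A/B alone (median 10.7), 12.9 to 21.8 at TP1 (median 16.6) and 10.7 to 26.1 at TP2 (median 15.7). The arms overlapped. The log2 fold change was 0.59 ± 0.07 at TP1 (adjusted p = 9.56e-11), just past the threshold, and 0.49 ± 0.07 at TP2 (adjusted p = 4.6e-08), below it. In C/D the peak had 5.74 to 11.2 CPM alone (median 9.33), 10.9 to 17.5 at TP1 (median 14.5) and 8.34 to 21.5 at TP2 (median 13.9). The C/D log2 fold change was 0.67 ± 0.07 at TP1 (adjusted p = 1.71e-12) and 0.64 ± 0.07 at TP2 (adjusted p = 2.08e-11). It was higher in 6 of 6 and 8 of 8 combinations at each time point. Without replicate 3 of every group the A/B value at TP1 was 0.56 and was not called, and without replicate 1 the C/D value at TP2 was 0.55 and was not called.

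Phf11d encodes a PHD finger protein. Its peak (chromosome 14, 59364573 to 59366524, centred 78 bp upstream of a start) had 0.844 to 3.11 CPM in A/B alone (median 1.49), 1.48 to 5.58 at TP1 (median 3.14) and 0.966 to 4.28 at TP2 (median 2.33). The log2 fold change in A/B was 0.98 ± 0.14 at TP1 (adjusted p = 7.21e-08) and 0.58 ± 0.15 at TP2 (adjusted p = 0.00261), higher in 6 of 6 combinations at both. In C/D the level was higher from the start, at 2.72 to 10.2 CPM alone (median 6.07), and it was 3.71 to 12.8 at TP1 (median 8.93) and 3.35 to 16.3 at TP2 (median 9.88). The C/D changes were 0.35 ± 0.07 at TP1 (adjusted p = 6.87e-05) and 0.51 ± 0.07 at TP2 (adjusted p = 1.24e-08), which are below the fold threshold. All arms overlapped within each pair. The A/B call at TP2 stood on the threshold and was lost without replicate 1 (adjusted p = 0.0316) and without replicate 3 (log2 fold change 0.51, adjusted p = 0.0529). With the replicate number as a block it was also not called (adjusted p = 0.00505), as the fold change fell just under the threshold.

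Herc6 encodes the mouse ligase that joins ISG15 to proteins. Its peak (chromosome 6, 57580220 to 57582788, centred 496 bp inside the gene in an intron) had 12.5 to 24.6 CPM in A/B alone (median 17.3), 20.1 to 44.3 at TP1 (median 27.9) and 16.5 to 36.0 at TP2 (median 21.2). The log2 fold change was 0.70 ± 0.08 at TP1 (adjusted p = 8.7e-11) and 0.30 ± 0.08 at TP2 (adjusted p = 0.00432). In C/D the medians were 15.3 alone, 19.7 at TP1 and 18.9 at TP2, and the log2 fold changes were 0.46 ± 0.08 (adjusted p = 3.99e-05) and 0.17 ± 0.09 (adjusted p = 0.114). The range of the samples overlapped between the arms in both pairs.

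**Figure D3:**
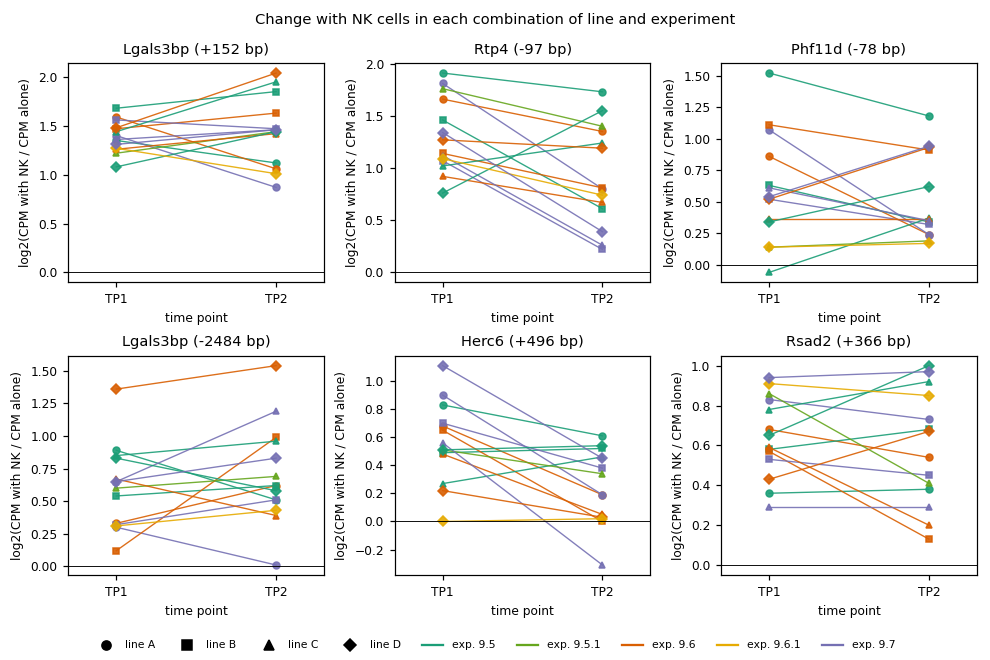
Log2 ratio of mean CPM with NK cells to mean CPM alone in each combination of line (marker) and experiment (colour) at TP1 and TP2, for the 6 called peaks; 0 means no difference. The 14 combinations lie above 0 at both time points for the Lgals3bp promoter, Rtp4 and Rsad2, and Herc6 goes down to -0.31 at TP2.

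With no fold threshold a larger share of the list passed, a list chosen with earlier results of these data known. At an adjusted p of at most 0.05, 26 of 46 member peaks were higher and 3 lower in A/B at TP1, beside 17.8% and 20.1% of all tested peaks. In A/B at TP2 17 were higher and 2 lower (9.77% and 9.76% of all). In C/D 28 of 47 were higher and 0 lower at TP1 (6.16% and 3.4% of all), with 1 lower at an unadjusted p under 0.05, and 27 were higher and 1 lower at TP2 (17.9% and 19.4% of all). The median log2 fold change of the member peaks at TP1 and TP2 was 0.18 and 0.14 for A/B, and 0.19 and 0.17 for C/D. The medians of all tested peaks were within 0.01 of 0. The member peaks are not independent of each other: 3 peaks are shared by 2 members each, Sp110, Sp140 and Sp100 hold 8 of the 48 tested peaks within 123.6 kb, Rsad2 and Cmpk2 lie 13.5 kb apart, and the Parp14, Dtx3l and Parp9 promoters lie within 68.3 kb.

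**Figure D4:**
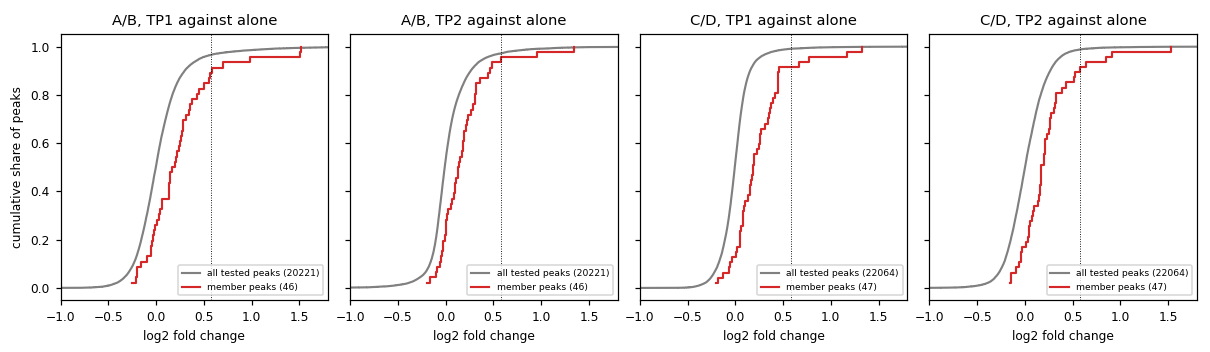
Cumulative share of peaks (y axis) by log2 fold change with NK cells against alone (x axis) for all tested promoter peaks (grey) and the peaks of the list (red) in each comparison; the dotted line is the fold threshold of 0.58. The medians of the list lie at 0.14 to 0.19 and those of all tested peaks near 0.

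Of the 45 peaks tested in all 4 comparisons, 14 peaks of 15 genes passed the adjusted p alone upwards in each, beside 2.94% of the 19417 promoter peaks so tested. Besides Lgals3bp, Rtp4, Rsad2 and Phf11d these were, named after their values were seen, Cmpk2, Ifih1, Isg20, Parp12, Parp14, a peak shared by Sp110 and Sp140, Uba7, Usp18, Xaf1 and Zbp1. Another 10 of the 45 peaks, of 9 genes, passed in none of the 4 comparisons (35.7% of all), among them both peaks of Adar and the promoters of Trim25 and Znfx1. The Rtp4 and Phf11d peaks among the 14 entered the A/B fit only through groups with NK cells, and the list was chosen with earlier results known.

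Among the sensors of foreign nucleic acids, 0 of 6 peaks was called by edgeR or DESeq2 in any comparison, and 3, 2, 3 and 3 were higher at adjusted p alone in A/B at TP1 and TP2 and C/D at TP1 and TP2. Ifih1, which encodes the sensor MDA5 for long double-stranded RNA, was highest in A/B, at 0.57 ± 0.07 at TP1 (adjusted p = 4.14e-09) and so was not called. Its medians in A/B were 13.1 CPM alone, 20.7 at TP1 and 18.2 at TP2, and in C/D they were 17.3, 24.0 and 21.1. Zbp1, which encodes a Z-form nucleic acid sensor, had log2 fold changes of 0.32 to 0.50. The lowest values were -0.20, at a Dhx58 intragenic peak in A/B at TP1 and at a Ddx58 intronic peak in C/D at TP1, and neither passed the adjusted p.

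In the ISG15 pathway 7 peaks of 5 genes were tested, and Herc6 at TP1 in A/B was the only call. Usp18, the protease that removes ISG15 from proteins, had log2 fold changes of 0.30 to 0.45 at the peak 300 bp upstream of its start, where the median in A/B went from 22.2 CPM alone to 29.7 at TP1. Uba7, the activating enzyme for ISG15, differed between its peaks. The peak 166 bp upstream of the start was higher at adjusted p alone in all 4 comparisons (0.14 to 0.32). The peak 1407 bp inside, in an exon of Gm20661, was -0.25 at TP1 and -0.16 at TP2 in A/B, both past the adjusted p downwards, and 0.01 and 0.16 in C/D. The region upstream of Isg15 was at -0.20 in A/B at TP2, also past the adjusted p downwards, and between -0.05 and 0.10 in the other comparisons.

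Of the genes that act on nucleotides or RNA, Rsad2 was the only one called. Cmpk2, a mitochondrial nucleotide kinase gene next to Rsad2, had log2 fold changes at TP1 and TP2 of 0.43 and 0.19 (A/B) and of 0.39 and 0.21 (C/D). The exonuclease gene Isg20 had 0.20 to 0.26. The lowest was Samhd1, which encodes a nucleotide hydrolase, at -0.21 at an intronic peak in A/B at TP1, while its promoter peak was at 0.15 there. Eif2ak2, the gene of the double-stranded RNA-activated kinase PKR, passed the adjusted p upwards in A/B at TP1 (0.27) and downwards in C/D at TP2 (-0.14). The RNA editing enzyme gene Adar and the helicase gene Znfx1 stayed between -0.06 and 0.13 in all comparisons.

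The membrane and secreted proteins held the 2 genes with the largest changes, Lgals3bp and Rtp4. The remaining members of that group are restriction factors. Bst2, which encodes tetherin, ranged from 0.06 to 0.26, and Ifitm3, which blocks the entry of enveloped viruses, from -0.03 to 0.27. Neither was called.

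Trim21, Trim30a and Trim34a were higher at adjusted p alone at TP1 in both pairs, at 0.25 to 0.38 in A/B and 0.16 to 0.37 in C/D. Trim25, a TRIM ligase gene that also joins ISG15 to proteins and was grouped with that pathway, passed in no comparison (0.01 to 0.06). At TP2 0 of the other 3 passed in either pair, at 0.01 to 0.18 and -0.09 to 0.09, and at an unadjusted p under 0.05 edgeR had Trim30a higher in A/B alone among them. Of these 3 the highest was Trim30a and the lowest Trim34a.

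Of the ADP-ribosylation genes, Parp12 had the highest value, 0.55 in A/B at TP1, with medians of 11.2 CPM alone and 17.1 at TP1. The peak shared by Dtx3l and Parp9, genes read in opposite directions whose products form a complex, had the lowest, 0.00 in A/B at TP2, and Parp14 had 0.14 to 0.27. None was called.

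In the nuclear body and chromatin group, Phf11d was the only gene called. Next to it was an intronic Sp140 peak tested in C/D alone, at 0.41 at TP1 and 0.52 at TP2. The lowest value was -0.16, at the Daxx promoter in A/B at TP1, which passed the adjusted p downwards, whereas in C/D at TP2 the same peak was at 0.20 and passed it upwards. Among signalling and death regulators, Xaf1, which encodes an interferon-induced partner of the apoptosis inhibitor XIAP, had 0.34 and 0.36 (A/B) and 0.45 and 0.58 (C/D) at TP1 and TP2. The last value was 0.579 before rounding and fell just below the threshold. The lowest was an Ifi35 intronic peak at -0.20 in A/B at TP1.

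Between the time points, with NK cells in both, 0 member peaks were called in either pair, where 0.93% of all tested peaks were called in A/B and 0.349% in C/D. DESeq2 also called 0, and at an unadjusted p under 0.05 edgeR had 5 higher and 15 lower in A/B and 8 higher and 10 lower in C/D. At adjusted p alone 1 member peak was higher and 11 lower in A/B, beside 8.7% and 9.89% of all tested peaks. In C/D 4 were higher and 10 lower, beside 16.0% and 18.4% of all. Rtp4 had the largest fall, at -0.56 ± 0.11 in A/B (edgeR adjusted p = 0.000194) and -0.26 ± 0.09 in C/D (adjusted p = 0.029), and was lower in 6 of 6 A/B combinations. Herc6 was at -0.40 ± 0.08 in A/B (adjusted p = 0.000196) and -0.29 ± 0.08 in C/D (adjusted p = 0.00533). Trim34a was lowest in C/D, at -0.32. The Lgals3bp promoter was at -0.18 ± 0.08 in A/B (adjusted p = 0.127) and 0.20 ± 0.06 in C/D (adjusted p = 0.010).

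The NK effect was then compared between the pairs in a fit over all samples. At TP1 1 of 45 member peaks was called different (1.55% of all tested peaks), and at TP2 0 of 45 were (2.22% of all). The 1 was Phf11d, whose change was smaller in C/D by 0.64 ± 0.14 on the log2 scale (C/D minus A/B, -0.64, edgeR adjusted p = 0.00158). This call was lost without replicate 1 (-0.61, adjusted p = 0.187) and without replicate 3 (-0.55, adjusted p = 0.0336). The Phf11d peak was tested in A/B only through groups with NK cells, which favours a larger change in A/B. At TP2 the difference for Phf11d was -0.06 ± 0.14 (adjusted p = 0.834). DESeq2 called 0 at TP2, and at an unadjusted p under 0.05 edgeR had 9 peaks with a larger change in C/D and 3 with a larger change in A/B. The differences for the Lgals3bp promoter were -0.20 at TP1 and 0.20 at TP2 (95% intervals -0.44 to 0.04 and -0.05 to 0.44). For Rtp4 they were -0.35 and -0.03 (-0.67 to -0.02 and -0.35 to 0.30), for Rsad2 0.07 and 0.16 (-0.12 to 0.26 and -0.04 to 0.35) and for Herc6 -0.25 and -0.12 (-0.49 to -0.02 and -0.37 to 0.12).

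Without NK cells, C/D differed from A/B at 4 of 48 member peaks by the same thresholds, all higher in C/D (9.27% of all tested peaks were called higher and 2.8% lower). DESeq2 called 3, and at an unadjusted p under 0.05 edgeR had 8 higher and 24 lower. The largest difference was that of Phf11d, at a log2 difference of 2.00 ± 0.12 (adjusted p = 5.97e-19), that is 4.01-fold, where the median level was 1.49 CPM for A/B and 6.07 CPM for C/D. The Lgals3bp upstream peak was at 0.61 ± 0.09 (adjusted p = 1.36e-07), the intronic Sp140 peak at 0.63 ± 0.19 (adjusted p = 0.00359) and Rtp4 at 0.59 ± 0.10 (adjusted p = 1.88e-06). Peaks that passed the filters in either pair were compared here. The Lgals3bp upstream and intronic Sp140 peaks passed only in C/D. Those of Phf11d and Rtp4 had a broad peak in every replicate of a group without NK cells only in C/D. All 4 were thus favoured to be higher in C/D. The Sp140 difference was 0.31 without replicate 3 (adjusted p = 0.207) and was not called, and Rtp4 without replicate 1 (0.50) or 2 (0.57) and the Lgals3bp upstream peak without replicate 2 (0.56) or 3 (0.52) also fell below the fold threshold. At adjusted p alone 8 peaks were higher and 22 lower in C/D, beside 25.4% and 30.6% of all tested peaks, and the lowest was the Samhd1 intronic peak at -0.48. These values compare 2 parental lines and no others.

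**Figure D5:**
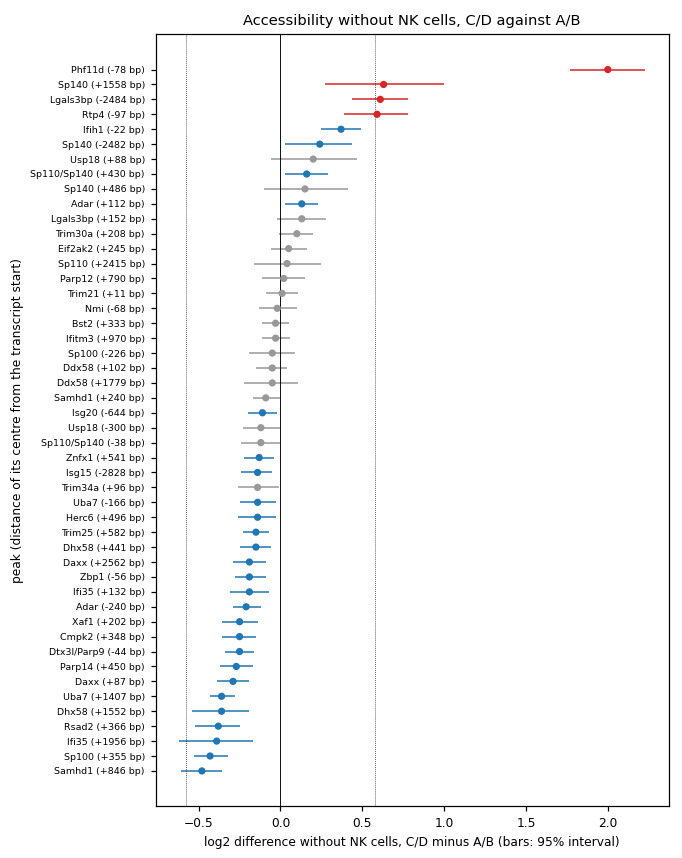
Log2 difference in accessibility without NK cells, C/D minus A/B, for each tested peak of the list, with bars for the 95% interval; red marks calls, blue an adjusted p of at most 0.05 below the fold threshold (dotted lines), grey neither. Phf11d lies at 2.00, and the other 47 peaks lie between -0.48 and 0.63.

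Accessibility near the starts of interferon pathway genes was measured in the same libraries, which does not measure the activity of the pathway. Of 25 genes of interferon receptors, kinases, STAT and IRF factors and their regulators, all with a tested peak, 3 had a peak called higher in A/B at TP1, 2 at TP2, 1 in C/D at TP1 and 4 at TP2, each through 1 peak of the 36 (A/B) or 38 (C/D) tested. The shares of all peaks called higher were the 3.4%, 2.82%, 0.947% and 1.22% given above. By edgeR 0 of their peaks were called lower. At adjusted p alone, 10, 8, 11 and 18 of their peaks were higher and 10, 3, 0 and 4 lower, where 17.8%, 9.77%, 6.16% and 17.9% of all peaks were higher and 20.1%, 9.76%, 3.4% and 19.4% lower. Irf1, the gene of a transcription factor induced by interferon-gamma, rose at 1 of its 2 tested peaks in all 4 comparisons, with log2 fold changes at TP1 and TP2 of 0.87 and 1.17 (A/B) and of 1.07 and 1.41 (C/D), while its other peak was at 0.15 to 0.32 and was not called. Batf2 rose at 1 of 2 peaks in A/B at both time points (1.33 and 1.20) and in C/D at TP2 (0.84), Irf9 in A/B at TP1 (0.61), and 1 peak each of Irf8 (0.91) and Tyk2 (0.75) in C/D at TP2. The other peak of Batf2 was at -0.15 to 0.10, that of Tyk2 at -0.09 to 0.17, and another Irf8 peak was at -0.47 in A/B at TP1 (adjusted p = 3.15e-08). For reference, antiviral genes that lie in clusters (16 genes, among them Mx1, Ifit and Oas genes) had 5, 3, 3 and 4 peaks called higher in the same order, of 16, 16, 19 and 19 tested, with median log2 fold changes of 0.46, 0.34, 0.42 and 0.32 over their tested peaks. The 15 interferon-gamma-induced GTPase genes had 11, 8, 8 and 8 of 18 peaks called higher, with medians of 0.69, 0.52, 0.52 and 0.42. The difference between the lists was not tested.

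The labelled cell type was checked against marker lists. Each of the 10 B cell marker genes had a tested peak, and 8 of them, Cd79a, Pax5 and Ebf1 included, had a broad peak in all 125 libraries. Genes of other lineages were open as well, since 2 of 6 T cell markers (Cd3d and Lat) and 2 of 6 myeloid markers (Cd14 and Spi1) had a broad peak in all libraries. In A/B 9 of 15 B cell marker peaks were lower at adjusted p alone at TP1 and 6 at TP2, where 20.1% and 9.76% of all peaks were, with median log2 fold changes of -0.23 and -0.12. In C/D 0 of 14 were lower at either time point and the medians were 0.04 and 0.11. By edgeR 0 of the B cell marker peaks were called in any of these comparisons.

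Of the 15 NK marker genes, Ncr1, Klrk1 and Ifng had no consensus peak, Gzma, Itga2 and Gzmb had a broad peak in 3 to 16 libraries, and the other 9 had one in 64 to 123 libraries, Eomes and Klrb1c in the most. Eomes had a median of 13.9 CPM alone and 13.8 with NK cells. Of the tested NK marker peaks, 11 for A/B and 12 for C/D, edgeR called 0 in any comparison. At adjusted p alone 5 of 11 were higher in A/B at TP1, where 17.8% of all peaks were, and their median log2 fold change of 0.27 there was above the 0.18 of the antiviral list. In the remaining comparisons 1 each was higher, with medians of 0.00 (A/B at TP2), 0.02 and 0.09 (C/D at TP1 and TP2). Of all peaks 9.77%, 6.16% and 17.9% were higher there. In C/D 1 Klrb1c peak was lower, at -0.21 at TP1 (edgeR adjusted p = 0.0215) and -0.17 at TP2 (adjusted p = 0.0362). Of all peaks 3.4% and 19.4% were lower there. The summed level of the 24 peaks of the NK list in A/B ranged from 72.8 to 94.9 CPM alone, 73.9 to 112 at TP1 and 65.4 to 108 at TP2, and in C/D from 69.1 to 98.3, 68.0 to 102 and 64.4 to 144. The part of any remaining NK cells in the values of the list was not tested.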

How the data were processed

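ATAC-seq libraries of B-ALL cells alone or with NK cells were analysed from the deposited tables. Reads had been processed by the authors with an ATAC-seq pipeline (STAR, GRCm38; Picard 2.27.4; broad peaks with MACS2 2.2.7.1), after which peaks were merged into a consensus set and read pairs were assigned to peaks. The deposited counts are raw counts per consensus peak, per the file headers; the deposited broad peaks carry −log10 q-values, all at least 1, and were used only to mark detection. The processing notes named a blacklist of another species' build, whose effect on these peaks was not tested.

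Here, transcript starts came from GENCODE M21. Each pair of lines was fitted in R 4.3.3 with edgeR 4.0.16 (quasi-likelihood, TMM scaling, library size the sum over all peaks, a term per line and experiment, and arm) over 20221 and 22064 promoter peaks genome-wide, with 54 and 69 samples. SE is the log2 fold change over the root of F. CPM values were TMM-scaled, and ratios for single combinations used a pseudocount of 0.1 CPM. The fit over all 123 samples covered 19417 peaks and that without NK cells 22868. Alternatives included DESeq2 1.42.0, other scalings, filters, peak windows and libraries. The fit was tested on simulated data. Values were named for every peak called in a comparison with cells alone, and otherwise for the highest and lowest of a group. The members and lists were chosen with earlier results of these data known.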

Additional observations from a re-analysis of the deposited data

Results flagged for a closer look

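The difference between pairs in the NK effect on Phf11d at TP1, C/D minus A/B, was -0.64 on the log2 scale (edgeR adjusted p = 0.00158), with a change of 0.98 in A/B, higher in 6 of 6 combinations, and 0.35 in C/D, higher in 7 of 8. It is listed because the interaction itself passed the thresholds. The level alone was 4.01-fold higher in C/D, and the peak entered the A/B fit only through groups with NK cells. With a loess offset the difference was -0.48 (adjusted p = 0.0219) and below the fold threshold. The part of the unequal starting level in this difference was not tested.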

How the results depend on the processing

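No called peak changed direction under any alternative run that tested it. Over all alternatives, 290 repeats of a called peak kept the call and 43 lost it. Runs whose filter removed the peak were counted as neither. In the order A/B at TP1, A/B at TP2, C/D at TP1 and C/D at TP2, the counts called higher were 26, 17, 28 and 27 at adjusted p alone, where 3, 2, 0 and 1 were lower. The shares of all peaks are given above. Where only peaks found in every library were kept, the counts were 3, 0, 1 and 2. Of all peaks 0.626%, 0.549%, 0.136% and 0.391% were called higher there. That filter leaves 35 and 33 member peaks. It removes the Lgals3bp, Rtp4 and Phf11d peaks and adds Ifih1 (A/B at TP1) and Xaf1 (C/D at TP2) to the calls. Between time points at adjusted p alone 1 was higher and 11 lower for A/B, and 4 and 10 for C/D, beside the shares of all peaks given above. The NK effect differed between the pairs at 4 peaks at TP1 and 7 at TP2. No share of all peaks was taken there, so these counts cannot be set against other peaks. Without NK cells the pairs differed at 30, where 25.4% of all peaks were higher and 30.6% lower. The difference between pairs at TP1 gave 0 with the loess offset, with peaks found in every library and in experiments 9.6 and 9.7. Of all peaks 0.994%, 0.101%, 0.0422% and 0.00542% were called there. It gave 3 at TP1 in 9.5, where 4.73% of all peaks were called, and 2 at TP2 in 9.7, where 11.5% were. Without NK cells the count was 2 with the loess offset, within 1 kb, with gene starts alone and in 9.7, 1 without the detection filter and genome-wide, and 0 with peaks found in every library. In the same order, 10.6%, 10.8%, 11.5%, 11.8%, 11.2%, 15.5% and 6.01% of all peaks were called. Between time points 1 peak was lower in A/B with the loess offset, without the detection filter and in 9.7 (0.678%, 0.783% and 1.45% of all peaks). In C/D 3 were lower in 9.7, and 1 was higher without the detection filter (1.69% of all peaks), 1 in 9.5 and 3 in 9.6. Of all peaks 6.8% were lower in C/D in 9.7 and 8.34% and 5.63% higher in 9.5 and 9.6, so those member counts are near the share of all peaks or below it. At TP2 6 were higher in A/B in 9.5 (4.35% of all peaks), and 7 in C/D in 9.7 (9.26%) and without the repeat experiments (2.13%). For these counts the cause was not tested. Leaving out each replicate number in turn gave 0 to 1 lower in A/B between time points, 0 to 1 for the difference at TP1 and 2 to 3 without NK cells. The shares of all peaks were 0.456% to 1.6%, 0.141% to 3.1% and 11.1% to 13.5%. Over all tested peaks the share of calls that were higher was 88.1% in A/B at TP1 and 78.1% at TP2, and 76.4% and 64.1% with the loess offset.

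Samples that share a replicate number deviated together in some pairs but not in the median. Over 116 pairs the correlation of their deviations across peaks had a median of 0.02, beside -0.01 for unlike numbers. The range was -0.47 to 0.50, with 40 pairs above 0.1. With the replicate block the counts called higher were 5, 2, 4 and 5, beside 3.46%, 2.8%, 1.01% and 1.41% of all peaks. The difference at TP1 was 1 (1.85% of all peaks) and no count of calls moved by over 1.5 times. Counting depth limits the weakest peaks: Phf11d in A/B alone had a median of 1.49 CPM.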
